A study of Homo sapiens with 26 samples.

Results

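The transcripts described here are 10 immediate-early genes of 3 families, the early growth response genes EGR1, EGR2, EGR3 and EGR4, the nuclear receptor genes NR4A1, NR4A2 and NR4A3, and the immediate early response genes IER2, IER3 and IER5. They were taken by name from the count files and make up 10 of the 63086 genes listed there. RNA was sequenced from HCT116, an epithelial line from a human colorectal carcinoma, in 26 libraries, of which 24 came from cells that express IGF2BP1 fused to mCherry. All of these 24 share the same background, namely a knockout of the paralogs IGF2BP2 and IGF2BP3 and a Tet-OsTIR1 cassette, and they received the fusion by lentivirus under the hPGK promoter. The fusion was wild type (WT) or carried one of 3 changes, S181E, in which a serine that can be phosphorylated is a glutamate, Y396E, in which a tyrosine is a glutamate, and RQ, in which arginines of the first disordered linker are glutamines. Each of the 4 populations was kept in control medium with PBS or in 500 µM sodium arsenite for 2 h, and each of the 8 groups holds 3 libraries from dishes that were plated separately. The populations were sorted through a narrow fluorescence gate and are not clones, whereas the knockout had passed through single-cell clones. Each fusion is represented by 1 such population, so its 3 dishes repeat the population and not the introduction of the fusion. Standard errors and p-values of a mutant against WT measure spread between dishes. The mutation and the history of its population cannot be told apart. A further pair of libraries, 1 control and 1 arsenite, came from parental HCT116 cells without the fusion. The epithelial markers EPCAM, KRT8, KRT18 and CDH1 were found in every library at 23.7 CPM (defined below) or more. Of 4 markers of other cell types, PTPRC (leukocytes) had no count in 25 of the 26 libraries, PECAM1 (endothelium) none in 6 and ALB (hepatocytes) none in 8, with at most 9 counts in any library, whereas COL1A1, a collagen of fibroblasts, was found in every library at 6.55 to 11.5 CPM.

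IGF2BP1 is an RNA-binding protein that protects a subset of mRNAs from decay and travels to stress granules when cells are treated with arsenite. Arsenite causes oxidative stress, damages proteins and halts most translation. Immediate-early genes are transcribed within minutes of a stimulus without new protein synthesis, and their mRNAs are short-lived as a rule. Growth factors and stress reach them through MAP kinases, which act on serum response factor (SRF) with its ELK partners at a DNA motif named the CArG box, and on CREB at cyclic AMP response elements (CRE). EGR1 to EGR4 are zinc finger transcription factors, the NR4A proteins are orphan nuclear receptors that act without a known hormone, and the IER proteins are regulators of growth, survival and the stress response.

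The 250 bases before each annotated start (RefSeq, GRCh38.p14) were read for 7 of the 10 genes, which have 10 starts in all. They are shown for EGR1 and EGR2, which hold both motifs named above, and for NR4A3, which holds the most copies of the CRE core and no CArG box. These 3 were chosen after the matches were seen. Capitals mark each CArG box and each TGACGT, the core of a CRE, read on both strands, where the other strand appears as ACGTCA. The motifs did not overlap. A stretch ends where an annotated exon begins.
EGR1, chr5:138465229-138465478, plus strand: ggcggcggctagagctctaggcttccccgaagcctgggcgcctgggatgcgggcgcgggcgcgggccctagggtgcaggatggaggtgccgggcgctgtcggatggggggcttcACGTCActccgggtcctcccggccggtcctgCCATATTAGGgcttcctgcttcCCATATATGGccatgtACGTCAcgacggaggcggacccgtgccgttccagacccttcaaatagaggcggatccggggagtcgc
EGR2, chr10:62816374-62816616, minus strand: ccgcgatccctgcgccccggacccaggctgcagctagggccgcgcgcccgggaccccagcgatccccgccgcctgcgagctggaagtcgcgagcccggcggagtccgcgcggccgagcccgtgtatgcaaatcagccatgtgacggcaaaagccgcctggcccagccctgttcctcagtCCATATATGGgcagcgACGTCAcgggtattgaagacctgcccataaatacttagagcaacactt
NR4A3, chr9:99821635-99821854, plus strand: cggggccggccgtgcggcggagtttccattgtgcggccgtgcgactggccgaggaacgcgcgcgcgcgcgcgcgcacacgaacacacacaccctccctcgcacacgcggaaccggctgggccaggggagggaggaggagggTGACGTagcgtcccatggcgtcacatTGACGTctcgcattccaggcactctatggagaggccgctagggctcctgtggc
EGR1 held 2 CArG boxes, 105 and 83 bases before its start, between a pair of CRE cores at 136 and 67 bases. EGR2 has 3 annotated starts, and the one shown held 1 CArG box at 71 bases and 1 CRE core at 55 bases, an order like that of the inner pair of EGR1. NR4A3 held 3 CRE cores at 109, 83 and 25 bases, of which the stretch shown has the first 2, and EGR4 held 2 at 178 and 110 bases. Neither motif was present in this window of NR4A1, IER2 or IER5. Of 35116 promoters of the same length, 1.16% held a CArG box, 7.1% a CRE core and 0.0769% both. These are matches of letters and do not show that a factor was bound.

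**Figure D1:**
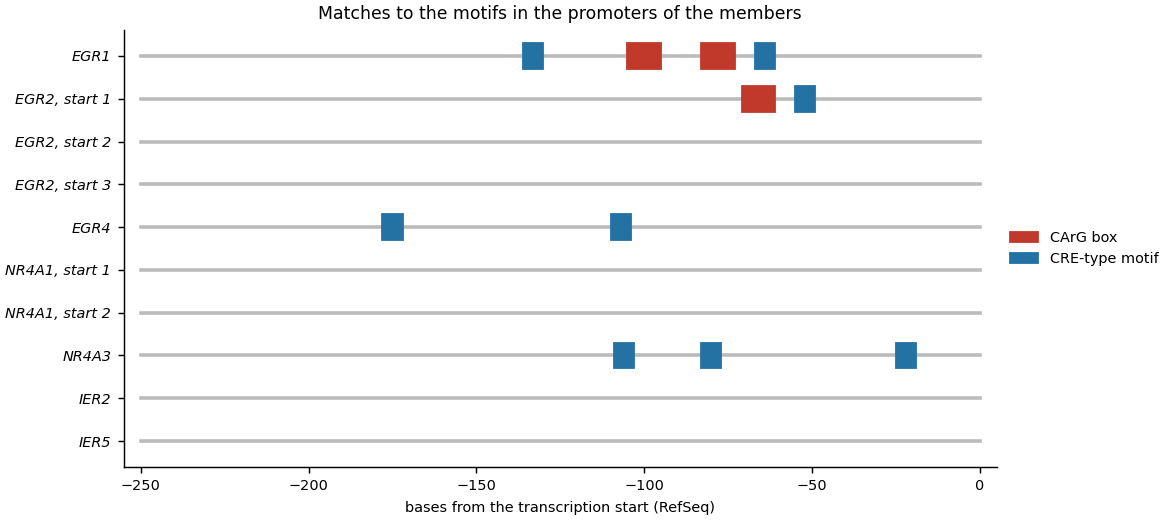
Matches to the CArG box (red) and to the CRE core (blue) in the 250 bases before each RefSeq start of 7 genes, with the distance from the start on the horizontal axis in bases. EGR1 and 1 start of EGR2 hold both motifs, EGR4 and NR4A3 hold the CRE core, and the other rows hold neither.

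Depth ranged from 22508145 to 50834401 counts per library. Levels are given as CPM, the counts of a gene per 1000000 counts of the tested genes, after scaling of the library totals by TMM (trimmed mean of M-values). A library of bulk RNA gives shares, so fewer cells with a transcript and less of it per cell cannot be told apart. The 9099 protein-coding genes above 10 CPM in at least 12 of the 24 libraries were tested, and a gene was called when its Benjamini-Hochberg adjusted p in edgeR's quasi-likelihood test was under 0.05 and its fold change above 1.2. For the filter alone, CPM was taken on the unscaled totals of all protein-coding genes. Counts of libraries above 10 CPM follow the filter and can differ from the levels printed below. NR4A3 in WT control replicate 3, for example, is printed at 10.3 CPM but was not above 10 CPM in this filter. Of the 10 genes, 8 passed this filter. EGR2 passed through its 12 arsenite libraries alone, since no control library was above 10 CPM, and EGR3 was above it in 3 control libraries. EGR4, above 10 CPM in 0 libraries, and NR4A3, above it in 11, failed and were fitted with 12984 genes that had at least 10 counts in at least 3 libraries, called the lower filter below. One library, Y396E arsenite replicate 3, had counts for 13897 genes against 20850 or more in each of the other 23.

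In unstressed WT cells the 10 transcripts covered a wide range of levels per length. IER3 led at 938 ± 68.9 CPM per kb of exon (SD, n = 3), followed by IER2 at 65.4 ± 4.06, EGR1 at 35.9 ± 2.86, NR4A1 at 22.4 ± 3.18 and IER5 at 18.4 ± 1.02. NR4A2 at 3.76 ± 0.591 CPM per kb, EGR3 at 2.58 ± 0.249, NR4A3 at 1.43 ± 0.275, EGR2 at 0.676 ± 0.0978 and EGR4 at 0.507 ± 0.159 formed the lower part. Libraries of NR4A1 and IER5 overlapped, as did those of EGR2 and EGR4, so that their order is not resolved. In arsenite the order in WT changed to EGR1 at 761 ± 58.2 CPM per kb, IER2 at 354 ± 18.0, IER3 at 339 ± 11.7, NR4A1 at 102 ± 1.79 and EGR2 at 81.1 ± 1.99. IER2 and IER3 overlapped there. IER5 at 28.3 ± 1.86 CPM per kb, NR4A2 at 26 ± 0.710, EGR3 at 21.5 ± 0.133, NR4A3 at 4.21 ± 0.0561 and EGR4 at 1.74 ± 0.131 followed.

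**Figure D2:**
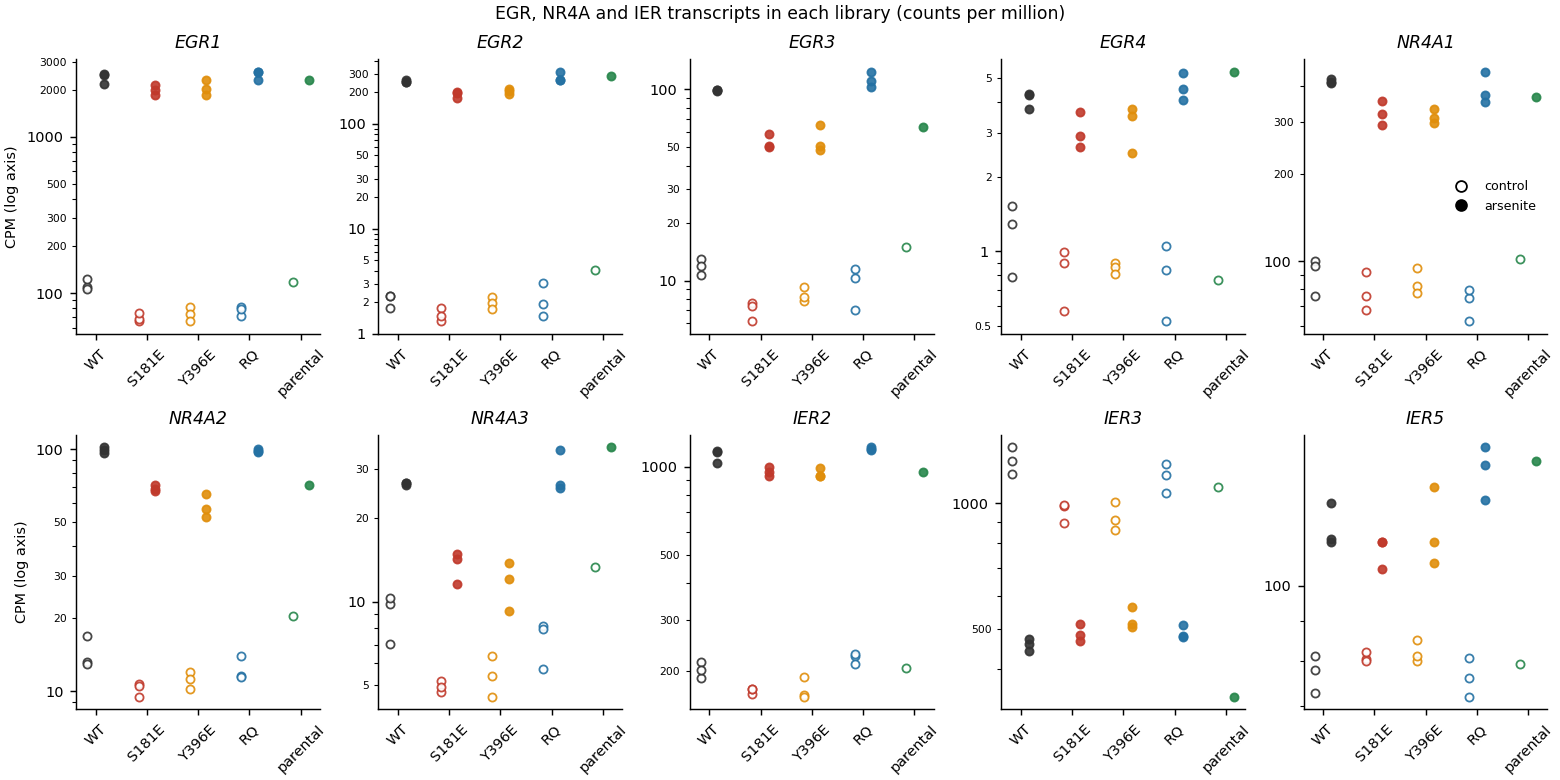
Level of each of the 10 transcripts in CPM (log axis, 1 scale per panel) in each library, with control libraries as open and arsenite libraries as filled points, by population. EGR2 goes from 1.31 to 3.03 CPM in the 12 control libraries of the 4 populations to 177 to 315 CPM in arsenite, and IER3 is the one panel in which arsenite lies below control.

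Arsenite raised 9 of the 10 transcripts in each of the 4 populations and lowered IER3 in each. In WT, 7 of the 8 genes tested were called higher and 1 lower, where 36.3% and 35.9% of all 9099 genes were called higher and lower. The same counts of 7 and 1 were found in S181E (32% and 33.3% of all genes), Y396E (32.9% and 32.9%) and RQ (37.1% and 35.8%). The median change of the 8 genes was 2.61 on the log2 scale in WT, against -0.01 for all genes. All 32 of these calls were made again by DESeq2. EGR2, EGR3 and NR4A2 met the filter only with their arsenite libraries, since 0, 3 and 10 of their control libraries were above 10 CPM on the unscaled totals of the filter. The genes were also chosen with earlier results of these data known. The counts and the median thus describe the genes and are no test against all genes.

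EGR2, a factor known for its part in myelination and in T cells, rose most. It had 2.27, 1.75 and 2.28 CPM in the WT control libraries and 259, 248 and 249 CPM in the WT arsenite libraries. The control values rest on 74, 42 and 64 counts. In S181E it went from 1.31, 1.75 and 1.48 CPM to 198, 177 and 199.6 CPM. Every arsenite library of any population was above every control library by far, and S181E in arsenite lay below WT. In Y396E EGR2 had 2.24, 1.98 and 1.71 CPM in control and 204, 191 and 215 CPM in arsenite. In RQ it had 1.92, 1.48 and 3.03 CPM in control and 315, 260.0 and 262 CPM in arsenite. The log2 change in WT was 6.89 ± 0.127 (SE). S181E reached 6.99 ± 0.131, Y396E 6.69 ± 0.128 and RQ 7.0 ± 0.127, with adjusted p (edgeR) of 1.46e-23, 2.79e-23, 4.62e-23 and 8.12e-24. In all 4 populations this was the rise of rank 2 among the 9099 genes. EGR2 was among them only through its arsenite libraries, so the rank is a description and no test.

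EGR1, the founding member of the family and a sensor of growth factors and stress, had the highest level of the 10 in arsenite. WT control libraries held 109.5, 106 and 123 CPM and WT arsenite libraries 2505, 2178 and 2482 CPM. S181E went from 66.6, 68.4 and 74.8 CPM to 1989.5, 1846 and 2142 CPM. The control libraries of S181E all lay below those of WT, and so did the arsenite libraries. Y396E went from 81.8, 73.1 and 65.9 CPM to 2011, 1859 and 2289.6 CPM, and here the arsenite libraries overlapped those of WT. RQ went from 82.0, 70.9 and 79.5 CPM, again all below WT, to 2596, 2299 and 2608 CPM, which overlapped WT. The log2 change of EGR1 was 4.41 ± 0.096 in WT and larger in the mutants, at 4.83 ± 0.099 (S181E), 4.80 ± 0.099 (Y396E) and 5.01 ± 0.099 (RQ).

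EGR3, which acts beside EGR2 in lymphocytes and muscle spindles, rose 8.29-fold in WT. It had 13, 10.7 and 12 CPM in WT control, and 98.7, 99.7 and 99.8 CPM in WT arsenite. In S181E it had 6.13, 7.61 and 7.39 CPM in control and 58.4, 50.1 and 50.9 CPM in arsenite. The S181E libraries lay below WT in both conditions, and no library of the 2 groups overlapped. In Y396E it had 9.27, 7.86 and 8.22 CPM in control and 50.6, 48.1 and 65.1 CPM in arsenite, which were also all below WT. In RQ it had 10.3, 7.02 and 11.5 CPM in control and 124, 103 and 111 CPM in arsenite, where every library lay above WT. On the log2 scale EGR3 rose by 3.05 ± 0.129 in WT, while S181E had a rise of 2.91 ± 0.135, Y396E one of 2.69 ± 0.133 and RQ one of 3.54 ± 0.132.

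EGR4 stayed low throughout. It had 0.522 to 1.53 CPM (13 to 43 counts) in the 12 control libraries and 2.49 to 5.28 CPM (74 to 175 counts) in the 12 arsenite libraries. The ranges did not overlap. Under the lower filter, it was called higher in all 4 populations, with log2 changes of 1.74 ± 0.265 (WT), 1.86 ± 0.276 (S181E), 1.89 ± 0.275 (Y396E) and 2.48 ± 0.278 (RQ). Of all genes of that fit, 30.8%, 27.2%, 29.2% and 31.9% were called higher in the same order.

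The NR4A genes rose less than EGR1 to EGR3. NR4A1 (Nur77), a receptor tied to apoptosis and T cell activation, had 99.9, 75.9 and 96.2 CPM in WT control and 423, 409.6 and 413 CPM in WT arsenite. In S181E it had 67.8, 76.1 and 91.7 CPM in control and 355, 294 and 320.0 CPM in arsenite. Control libraries of the 2 populations overlapped, and arsenite libraries did not. In Y396E it had 95, 81.9 and 78.0 CPM in control and 335, 299 and 311 CPM in arsenite, the latter again below WT. In RQ it had 75, 62.1 and 79.9 CPM in control and 449, 372 and 354 CPM in arsenite, which straddled WT. The log2 changes of NR4A1 were 2.19 ± 0.114, 2.04 ± 0.114, 1.89 ± 0.114 and 2.43 ± 0.116 in WT, S181E, Y396E and RQ.

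NR4A2 (Nurr1), known from dopamine neurons, had 13.2, 13 and 17.0 CPM in WT control and 102, 99.0 and 96.7 CPM in WT arsenite. In S181E it had 9.48, 10.7 and 10.5 CPM in control and 68.8, 67.4 and 71.5 CPM in arsenite. In Y396E it had 12, 11.2 and 10.2 CPM in control and 56.8, 65.3 and 52.3 CPM in arsenite. Every library of these 2 mutants lay below those of WT in the same condition, and in arsenite every Y396E library lay below every S181E library. RQ had 11.6, 11.5 and 14 CPM in control and 97.7, 99.8 and 97.9 CPM in arsenite, the latter within the WT range. The log2 changes of NR4A2 were 2.79 ± 0.094 (WT), 2.76 ± 0.096 (S181E), 2.39 ± 0.096 (Y396E) and 2.99 ± 0.096 (RQ).

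NR4A3 (NOR1), the third receptor of the family, had 9.78, 7.03 and 10.3 CPM in WT control and 26.7, 26.2 and 26.8 CPM in WT arsenite. In S181E it had 4.72, 5.15 and 4.94 CPM in control and 14.2, 11.6 and 14.8 CPM in arsenite, and in Y396E 5.38, 4.53 and 6.38 CPM in control and 13.8, 12.1 and 9.27 CPM in arsenite. Both mutants lay below WT in every library of both conditions. The lowest arsenite value was that of Y396E replicate 3, the library with few detected genes. RQ had 8.17, 5.70 and 7.99 CPM in control and 35.1, 26.2 and 25.6 CPM in arsenite, which overlapped WT in both conditions. Under the lower filter, NR4A3 was called higher in arsenite in all 4 populations, by 1.53 ± 0.163, 1.43 ± 0.174, 1.07 ± 0.173 and 1.96 ± 0.167 on the log2 scale in WT, S181E, Y396E and RQ.

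The IER genes went in different directions. IER2, a nuclear protein that takes part in the control of transcription, rose by 2.44 ± 0.058 (WT), 2.49 ± 0.059 (S181E), 2.46 ± 0.059 (Y396E) and 2.38 ± 0.058 (RQ) on the log2 scale. Its WT libraries held 214, 189 and 202 CPM in control and 1118, 1027 and 1127 CPM in arsenite. Of the 10 genes, IER2 had the narrowest range of changes over the 4 populations.

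IER3 (IEX-1), a short-lived stress protein that modulates survival and ERK signalling, fell. In WT it had 1261, 1361 and 1175 CPM in control and 459, 441 and 473 CPM in arsenite. In S181E it had 983, 987 and 895 CPM in control and 482, 513 and 467 CPM in arsenite. The control libraries of S181E all lay below those of WT, and in arsenite the 2 groups overlapped. In Y396E it had 1005, 909.6 and 862 CPM in control, all below WT, and 514, 504 and 564 CPM in arsenite, all above WT. In RQ it had 1241, 1167 and 1056 CPM in control, which overlapped WT, and 479, 509 and 478 CPM in arsenite, all above WT. The log2 change of IER3 was -1.47 ± 0.067 (WT), -0.97 ± 0.066 (S181E), -0.81 ± 0.066 (Y396E) and -1.24 ± 0.067 (RQ), with adjusted p (edgeR) of 5.65e-16, 2.39e-12, 5.83e-11 and 1.27e-14. The fall in WT was the 76th largest of 9099. An antisense gene, IER3-AS1, overlaps IER3, and genes on the opposite strand also overlap EGR3, NR4A1, NR4A3 and IER2. Reads were counted by strand.

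IER5, which binds PP2A and the heat shock factor HSF1, rose least of the genes that rose under the main filter, with 81.2, 72.7 and 77.9 CPM in WT control and 114, 115 and 128 CPM in WT arsenite. RQ libraries had 80.7, 71.9 and 76.0 CPM in control and 143, 129 and 151 CPM in arsenite. In arsenite all RQ libraries lay above those of WT. The log2 change was 0.62 ± 0.072 (WT), 0.46 ± 0.072 (S181E), 0.52 ± 0.072 (Y396E) and 0.89 ± 0.072 (RQ).

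**Figure D3:**
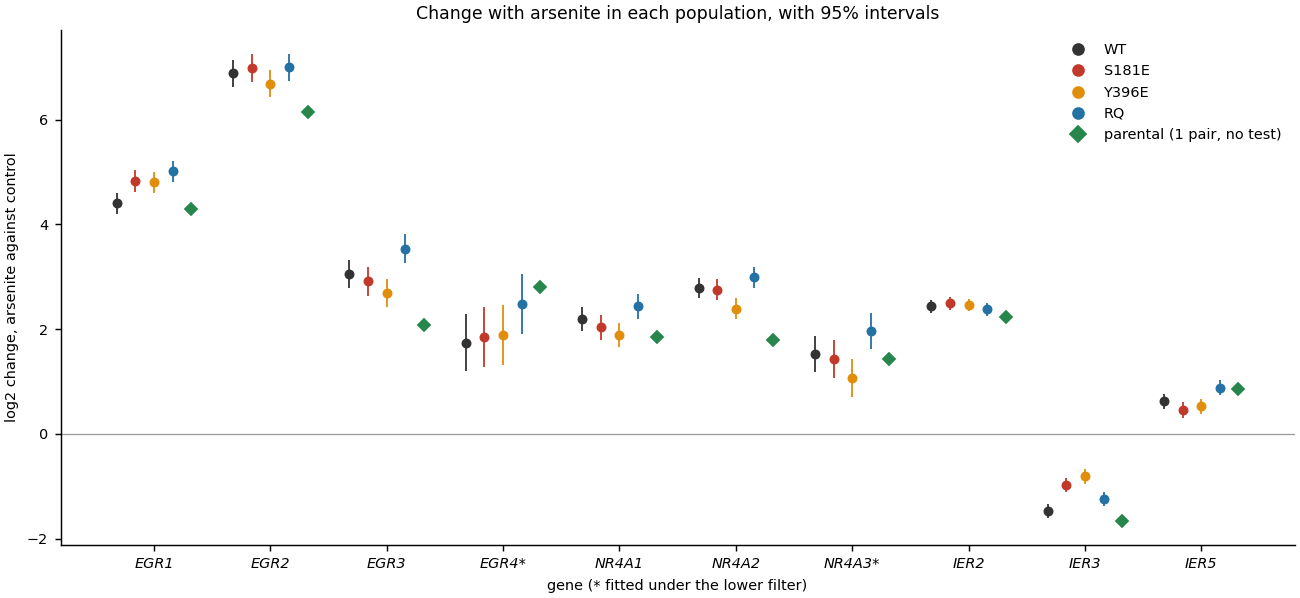
Log2 change of each transcript with arsenite against control in WT, S181E, Y396E and RQ (points with 95% intervals, 3 libraries per group) and in the parental pair (diamonds, 1 library per treatment, no interval). The genes rise by 0.46 to 7.0 in the 4 populations, except IER3, which falls in all of them.

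The second comparison asked whether the mutants differed from WT before stress. IGF2BP1 RNA itself stood at 12.1 ± 2.27 CPM in WT control, 18.6 ± 1.56 in S181E, 16.5 ± 1.18 in Y396E and 14.4 ± 1.91 in RQ (SD, n = 3). In arsenite it stood at 29.2 ± 1.15, 43.3 ± 0.688, 43.2 ± 1.26 and 47.1 ± 0.863 CPM in the same order. Whether these levels bear on the 10 genes was not tested. In control cells, 4 of the 8 genes were called lower in S181E and the same 4 in Y396E, namely EGR1, EGR3, NR4A2 and IER3, and none was called higher. Of all 9099 genes, 15.4% were called lower and 15.7% higher in S181E, and 14.2% and 14.5% in Y396E. In S181E the differences from WT were -0.69 ± 0.089 for EGR1, -0.77 ± 0.146 for EGR3, -0.49 ± 0.103 for NR4A2 and -0.41 ± 0.066 for IER3 on the log2 scale. In Y396E they were -0.62 ± 0.089, -0.50 ± 0.145, -0.37 ± 0.103 and -0.45 ± 0.066 in the same order. Both comparisons use the same WT libraries, so a deviation of these enters both. Adjusted p-values (edgeR) ran from 9.73e-07 for EGR1 to 0.000391 for NR4A2 in S181E and from 5.47e-06 for EGR1 to 0.00679 for EGR3 in Y396E. NR4A3, fitted under the lower filter, was lower as well, by -0.87 ± 0.178 in S181E and -0.74 ± 0.178 in Y396E, where 12.2% and 12% of the genes of that fit were called lower.

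The remaining genes were not called in control cells. IER2 differed by -0.24 ± 0.057 in S181E and -0.22 ± 0.057 in Y396E, with adjusted p of 0.00135 and 0.00267 (edgeR) but a fold change under 1.2. EGR2, from few counts, differed by -0.50 (95% interval -0.95 to -0.05) in S181E and by -0.11 (-0.55 to 0.33) in Y396E. NR4A1 differed by -0.21 (-0.44 to 0.03) and -0.10 (-0.33 to 0.14), IER5 by 0.06 (-0.09 to 0.21) and 0.09 (-0.06 to 0.24), and EGR4 by -0.54 (-1.14 to 0.06) and -0.51 (-1.11 to 0.10). The interval of EGR4 includes differences of the size seen for EGR1. Without WT control replicate 3, NR4A2 was not called in Y396E, at -0.24 (adjusted p = 0.0615, edgeR). With libraries scaled by their totals alone, the median of all genes shifted by 0.16 in S181E and 0.13 in Y396E, and higher genes made up 83.6% of the calls in S181E (50.4% under TMM) and 81.1% in Y396E (50.5%). IER3 in S181E (-0.25) and NR4A2 in Y396E (-0.25) were then not called.

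In RQ, EGR1 was the only one of the 8 genes called in control cells, lower by 1.45-fold (log2 difference -0.54 ± 0.089, adjusted p = 0.000923, edgeR). No more than 0.429% of all genes were called lower and 1.00% higher in this comparison, and EGR1 had the fifth lowest difference of all 9099. In a fit blocked on the replicate number, this difference was -0.54 ± 0.068. NR4A1 differed by -0.33 (95% interval -0.56 to -0.09) and EGR3 by -0.31 (-0.60 to -0.02), with adjusted p of 0.16 and 0.323 (edgeR), and neither was called. In the blocked fit they differed by -0.325 ± 0.099 and -0.313 ± 0.129, with adjusted p of 0.0796 and 0.221 (edgeR), again not called. Without WT control replicate 2, NR4A1 was called in RQ, at -0.44 (adjusted p = 0.035). Under scaling by totals, 38.3% of the calls in RQ were higher in place of 70.0%, and EGR1 was still called lower.

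**Figure D4:**
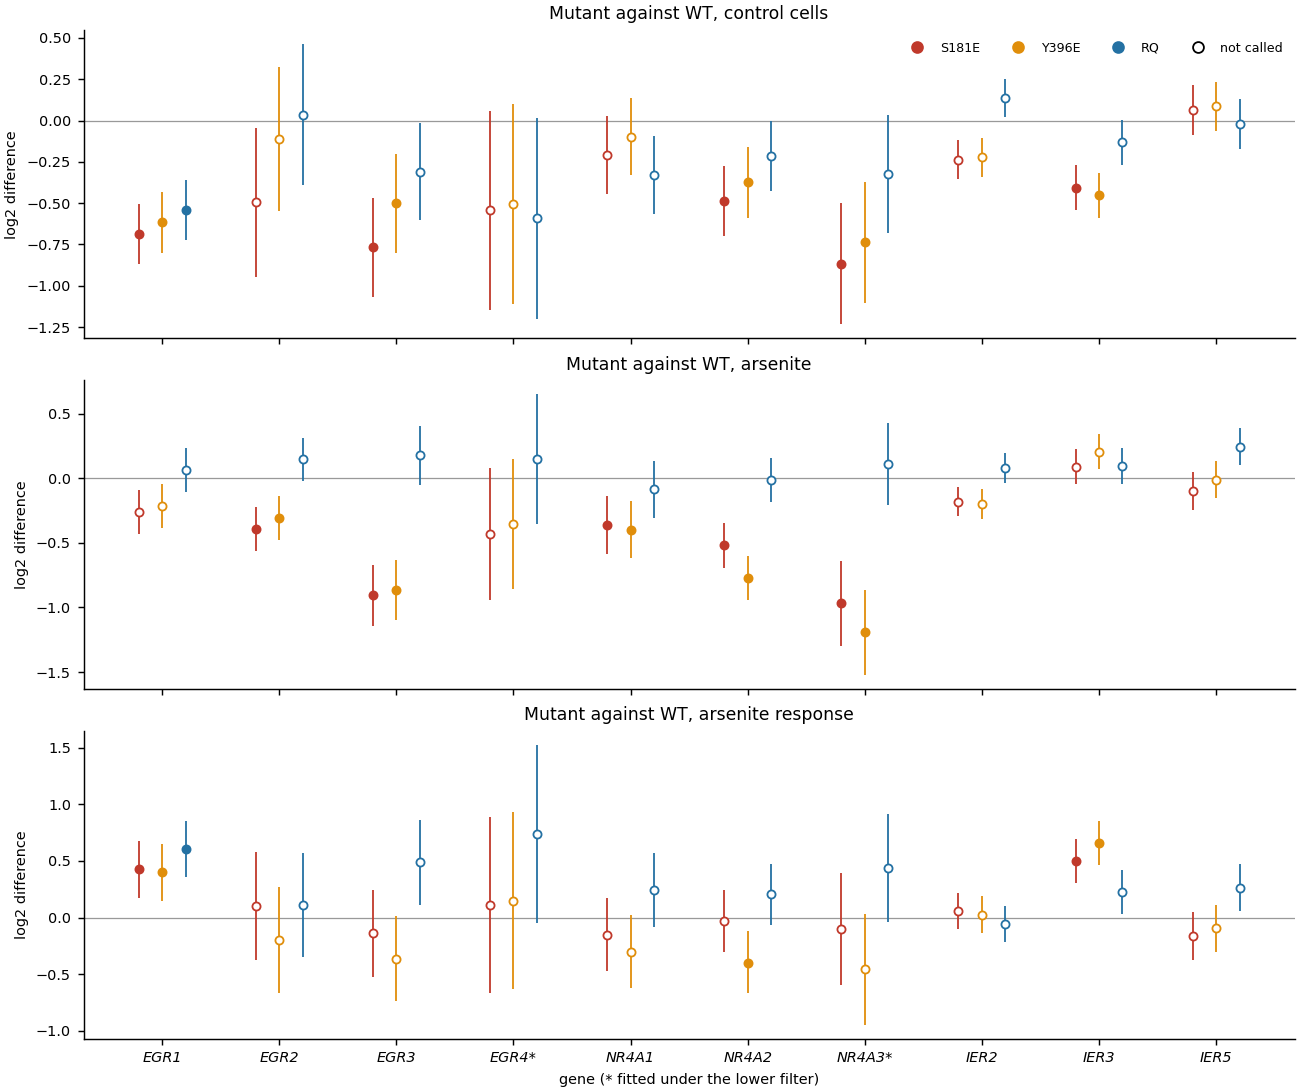
Log2 difference of S181E, Y396E and RQ from WT with 95% intervals in control cells (top), in arsenite (middle) and in the arsenite response, that is the change with arsenite in the mutant minus that in WT (bottom). Filled points were called, and EGR1 is filled for all 3 mutants at the top and at the bottom but for none in the middle.

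In arsenite, 4 of the 8 genes were again called lower in S181E and in Y396E, and none was called higher, but the 4 were EGR2, EGR3, NR4A1 and NR4A2. Among all genes, 8.42% were called lower and 5.32% higher in S181E, and 11.9% and 9.77% in Y396E. EGR3 showed the largest of these differences in both, at -0.91 ± 0.114 in S181E and -0.86 ± 0.112 in Y396E, with adjusted p of 1.33e-06 and 1.71e-06 (edgeR). NR4A2 differed by -0.52 ± 0.083 and -0.77 ± 0.083, NR4A1 by -0.36 ± 0.108 and -0.40 ± 0.107, and EGR2 by -0.39 ± 0.081 and -0.31 ± 0.081. NR4A3, under the lower filter, differed by -0.97 ± 0.158 in S181E and -1.19 ± 0.158 in Y396E, where 6.89% and 10.7% of genes were called lower. All 3 NR4A transcripts were thus lower than in WT in both mutants, and NR4A3 in Y396E stood at 11.7 ± 2.29 CPM against 26.6 ± 0.354 CPM (SD, n = 3).

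EGR3 lies on chromosome 8 (22687659 to 22693480). The 40 tested genes whose start lay within 5 Mb of that of EGR3 had a median difference of 0.04 in S181E and 0.03 in Y396E in arsenite, and 0.13 and 0.07 in control. Of these neighbours, 7 were called lower and 8 higher in S181E in control, and 6 and 7 in Y396E. In arsenite, 3 were lower and 5 higher in S181E, and 1 and 4 in Y396E. Whether the position of EGR3 bears on its level was not tested. The lowest median of neighbours for another of the 10 genes was -0.10, over the 16 tested genes near NR4A2 in Y396E in arsenite.

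EGR1 and IER2, which reach the highest levels of the 10 in arsenite, lay less far below WT and were not called. EGR1 differed by -0.26 ± 0.083 in S181E and -0.22 ± 0.083 in Y396E, and IER2 by -0.18 ± 0.055 and -0.20 ± 0.055, with adjusted p between 0.00678 and 0.0424 (edgeR) and fold changes of no more than 1.2. IER3 was at 0.09 (95% interval -0.05 to 0.23) in S181E and at 0.20 (0.07 to 0.34) in Y396E. NR4A1 in S181E was not called without WT arsenite replicate 1 (-0.35, adjusted p = 0.0525), without S181E arsenite replicate 2 (-0.30, adjusted p = 0.096) or under scaling by totals (-0.32, adjusted p = 0.0553). EGR1 was called lower in Y396E without Y396E arsenite replicate 3, at -0.30 (adjusted p = 0.00392, edgeR). The share of calls that were higher in S181E went from 38.7% to 55.9% under totals.

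In RQ none of the 8 genes was called in arsenite by edgeR or by DESeq2, and 1 of them, IER5, had an unadjusted p under 0.05. Among all genes 0.154% were called lower and 1.36% higher, and under totals 77.7% of the calls were higher in place of 89.9%. IER5 differed by 0.25 (95% interval 0.10 to 0.39, adjusted p = 0.0767, edgeR). In the fit blocked on the replicate number, IER5 differed by 0.243 ± 0.054 (adjusted p = 0.0127, edgeR) and was not called, since its fold change was under 1.2. EGR1 differed from WT by 0.07 (-0.10 to 0.24), NR4A1 by -0.09 (-0.31 to 0.14) and NR4A2 by -0.01 (-0.18 to 0.16). RQ was not tested against S181E or Y396E.

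The third comparison asked whether the change with arsenite itself differed from that of WT. EGR1 rose more in all 3 mutants, by 0.43 ± 0.121 on the log2 scale in S181E, 0.40 ± 0.121 in Y396E and 0.61 ± 0.121 in RQ (adjusted p = 0.0172, 0.0201 and 0.0259, edgeR). In each mutant the difference from WT was larger in control than in arsenite. The 3 tests share the 6 WT libraries. Of all genes, 16.4% were called in either direction in S181E, 21.5% in Y396E and 0.220% in RQ, and EGR1 was 1 of the 20 genes called in RQ. In the fit blocked on the replicate number, the EGR1 response in RQ differed by 0.61 ± 0.092 (adjusted p = 0.00132, edgeR). The losses given next come from fits without this block. Under scaling by totals, EGR1 was not called in any of the 3, at 0.31 (adjusted p = 0.0899), 0.30 (0.0996) and 0.61 (0.0765). Without WT arsenite replicate 2, it was not called in any either, at 0.36 (adjusted p = 0.0541), 0.34 (0.0623) and 0.54 (0.119). The call in RQ was also lost without WT control replicate 1 (0.63, adjusted p = 0.0545) or 3 (0.54, 0.108), RQ control replicate 2 (0.55, 0.142) and RQ arsenite replicate 1 (0.58, 0.0723) or 3 (0.57, 0.116). That in Y396E was lost without WT control replicate 3 (0.33, 0.0501) and Y396E control replicate 3 (0.32, 0.0745).

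IER3 fell less in S181E and Y396E than in WT, by 0.50 ± 0.093 and 0.66 ± 0.093 on the log2 scale (adjusted p = 0.00109 and 4.63e-05, edgeR). Its control level was lower than in WT in both, its arsenite level was not, and these 2 calls were kept under each of the 33 other settings tried at the fold threshold of 1.2. In RQ the difference was 0.23 (95% interval 0.03 to 0.42, adjusted p = 0.999), and the fit blocked on the replicate number gave 0.226 ± 0.087 (adjusted p = 0.858, edgeR). NR4A2 rose less in Y396E, by -0.40 ± 0.133 (adjusted p = 0.0318), and was close to WT in S181E at -0.03 (-0.30 to 0.24). This call for NR4A2 was lost when 1 library was left out in 6 of 24 cases, namely WT control replicate 1 (-0.33, adjusted p = 0.0851) or 2 (-0.33, 0.10), WT arsenite replicate 1 (-0.38, 0.063) or 2 (-0.40, 0.0542) and Y396E control replicate 1 (-0.34, 0.0848) or 2 (-0.39, 0.0602).

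The other genes showed no called difference in response. EGR3 differed by -0.14 (95% interval -0.52 to 0.25) in S181E, and NR4A3 by -0.10 (-0.59 to 0.39) under the lower filter. EGR3 in Y396E differed by -0.36 (-0.74 to 0.02), and by -0.51 (adjusted p = 0.013, edgeR) without Y396E arsenite replicate 3. IER2 had the narrowest intervals, 0.06 (-0.11 to 0.22) in S181E, 0.02 (-0.14 to 0.19) in Y396E and -0.06 (-0.22 to 0.11) in RQ. Scaling by totals left 3 of the 6 called differences, those of IER3 and NR4A2, and moved the share of calls that were higher from 42.6% to 13% in S181E and from 48.1% to 18.2% in Y396E.

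S181E and Y396E, which carry a glutamate in different linkers, were also compared with each other. None of the 8 genes was called in control, in arsenite or in response, and of all genes 0%, 0% and 0% were called by edgeR. Of the 9099 genes, 289, 1375 and 376 had an unadjusted p under 0.05, and DESeq2 called 1, 9 and 0. NR4A2 was the one of the 8 with such a p, in arsenite at -0.25 (95% interval -0.43 to -0.08, adjusted p = 0.263, edgeR) and in response at -0.37 (-0.65 to -0.09, adjusted p = 0.853). Without Y396E arsenite replicate 2, NR4A2 was called in arsenite, at -0.35 (adjusted p = 0.0273). EGR1 had intervals of -0.11 to 0.26 in control and -0.13 to 0.21 in arsenite, and EGR3 of -0.05 to 0.58 and -0.19 to 0.28.

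Parental cells, with 1 library per treatment and no test, had the same directions. The log2 ratio of arsenite to control was 4.29 for EGR1, from 3403 to 82296 counts, and 6.14 for EGR2, from 116 to 10134 counts. EGR3 rose by 2.09, NR4A1 by 1.84, NR4A2 by 1.80 and IER2 by 2.23, all below the lowest of the 4 populations. For NR4A1 the 95% Poisson interval of the ratio, 1.786 to 1.902, includes the 1.892 of Y396E. IER3 was at -1.67, a larger fall than in any population. EGR4 at 2.80, from 22 control counts, lay above the populations, but its Poisson interval of 2.163 to 3.511 includes the 2.482 of RQ. NR4A3 at 1.44 and IER5 at 0.87 lay within the range of the populations. The parental control level of NR4A2 was 20.5 CPM (95% Poisson interval 18.9 to 22.2, counting error only), above all control libraries of the 4 populations, and that of EGR2 was 4.03 CPM (3.33 to 4.83). In arsenite the parental library had 71.3 CPM of NR4A2, 63.5 of EGR3, 367 of NR4A1, 962 of IER2 and 343 of IER3. All of these lay below every WT arsenite library. EGR2 at 284 CPM, NR4A3 at 36.0, EGR4 at 5.33 and IER5 at 145 lay above the WT arsenite libraries. EGR1 at 2308 CPM lay within their range. The genotype and the passage history differ together between parental cells and the populations and cannot be told apart.

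Other immediate-early genes changed with arsenite too. Of a list of 40 primary response genes, 36 were tested, and in WT 20 were called higher and 12 lower with arsenite, where 36.3% and 35.9% of all genes were called higher and lower. Their median was 0.39 against -0.01 for all genes. The largest changes were rises of AP-1 subunits, FOS at 7.73 ± 0.096 on the log2 scale, from 5.21 ± 0.925 to 1115 ± 9.76 CPM (SD, n = 3), FOSB at 6.06 ± 0.157 and JUN at 4.73 ± 0.089. EGR2 thus ranked between FOS and FOSB. The share of lower genes in this list, 12 of 36, was close to that of all genes. Under totals, higher genes made up 61.6% of all calls in WT (50.3% under TMM) and 62.0% of those in RQ (50.9%).

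**Figure D5:**
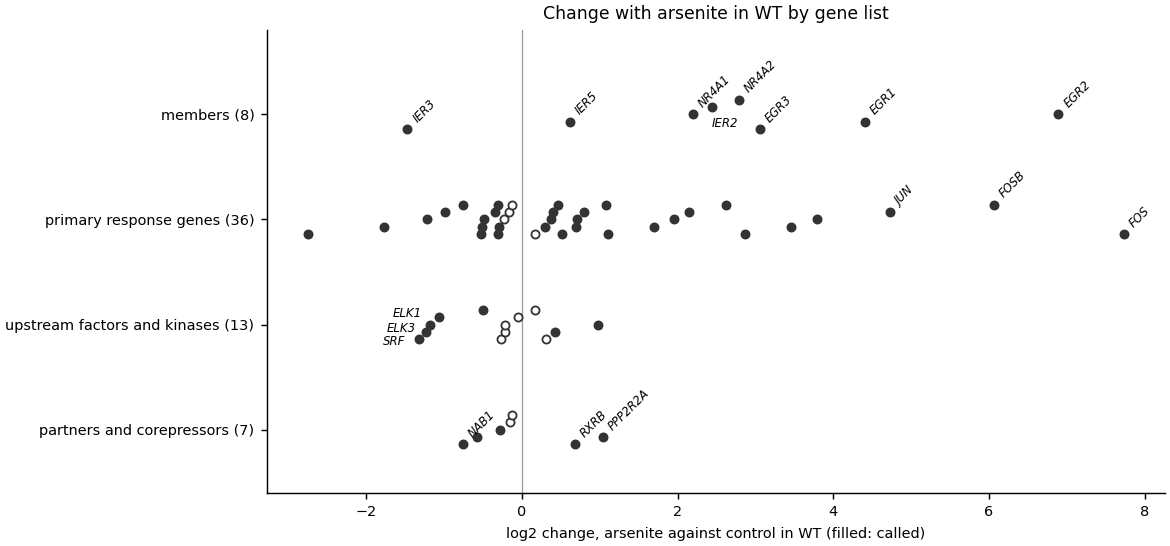
Log2 change with arsenite in WT for the 8 tested members and for 3 gene lists, with the number tested in brackets. Filled points were called, each row is spread vertically only to separate points, and the members and the 3 called genes of each list with the largest changes are named. The members sit at 0.62 to 6.89 apart from IER3, within the range of the primary response genes.

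In control cells, 21 of the 36 primary response genes were called lower in S181E and 1 higher (KLF2, 0.76 ± 0.060), beside 15.4% and 15.7% of all genes, with a median of -0.34 against 0.02 for all genes. In Y396E 19 were called lower and 4 higher (KLF2, ATF3, DUSP4 and GADD45B), beside 14.2% and 14.5% of all genes. In RQ 1 was lower (GEM, -0.62 ± 0.105) and 1 higher (GADD45B, 0.26 ± 0.052), beside 0.429% and 1.00% of all genes. Of the list, 6 genes lie on chromosome 8, and of the 30 elsewhere 18 were lower in S181E and 16 in Y396E. In arsenite 11 were lower and 4 higher in S181E (8.42% and 5.32% of all genes), and 10 were lower and 4 higher in Y396E (11.9% and 9.77%), with KLF2, RHOB, DUSP4 and GADD45B as the higher ones in both. In RQ 0 were lower and 6 higher (0.154% and 1.36%). The response differed from WT in 14 of the 36 in S181E, where 16.4% of all genes were called, with the largest differences in GEM (1.30 ± 0.150), a small GTPase, HBEGF (1.07 ± 0.123), an EGF receptor ligand, and JUN (0.95 ± 0.116). JUN went from 48.0 to 1275 CPM in WT and from 20.5 to 1047 CPM in S181E, a pattern like that of EGR1. In RQ, 4 of the 36 had a called difference in response, ATF3, DUSP6, GEM and JUND, all in the direction of a higher value than in WT, beside 0.220% of all genes. The genes of this paragraph other than GEM, HBEGF and JUN in S181E were chosen for naming after their values were seen.

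Of 13 upstream factors and kinases, 2 were called higher and 5 lower with arsenite in WT, a share of lower genes close to the 35.9% of all genes. The largest changes were those of SRF at -1.32 ± 0.057 (281 ± 24.7 to 112 ± 3.31 CPM) and its partners ELK3 at -1.23 ± 0.087 and ELK1 at -1.17 ± 0.105. In S181E the response of ELK3 differed by 0.42 ± 0.123. Of 7 partners and corepressors, 2 were higher and 3 lower in WT, near the shares of 36.3% and 35.9% of all genes, with PPP2R2A, a subunit of PP2A, at 1.04 ± 0.054, RXRB, a partner of NR4A receptors, at 0.68 ± 0.066 and NAB1, a corepressor of EGR proteins, at -0.76 ± 0.076. NAB2, itself a target and corepressor of EGR1, was lower in S181E by -0.49 ± 0.071 and in Y396E by -0.60 ± 0.071 in arsenite, and its response in S181E differed by -0.62 ± 0.10. It went from 109 to 89.2 CPM in WT and from 119 to 63.5 CPM in S181E. HSF1, the partner of IER5, was lower in S181E (-0.63 ± 0.048) and Y396E (-0.58 ± 0.048) in control, as were its neighbours on chromosome 8, where 55 and 56 of the 58 tested genes within 5 Mb were called lower.

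Over the 24 libraries, the genes whose log2 CPM was most like that of EGR1 were JUNB, FOSB and FOS (Pearson's r of 0.9981, 0.9979 and 0.9972). Those most like NR4A1 were CABIN1, FOSB and NUP214 (0.9932, 0.9928 and 0.9920), and those most like IER2 were PPP1R15A, CCNL1 and SRRM2 (0.9979, 0.9963 and 0.9962). These values describe mainly the step from control to arsenite, which all 24 libraries share.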

How the data were processed

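Poly(A) RNA from clarified lysates was sequenced as single reads with a strand-specific kit. The authors aligned the reads to hg38 with STAR 2.7.11b and counted them per gene with featureCounts (Subread 2.0.6) by strand against GENCODE 46, and what they deposited are raw counts in whole numbers, 1 per gene and library. Symbols came from GENCODE 44, which matched 62541 of 63086 identifiers (99.1%), and coordinates are those of the files. Promoter sequences are those of RefSeq. The members and gene lists were chosen with earlier results of these data known. Named genes were the 10 members, the 3 called genes of each list with the largest change in WT and the 3 with the largest response difference in S181E, and the 3 genes most like EGR1, NR4A1 and IER2. Other genes of the lists that are named were chosen after their values were seen. A result of 1 gene that this rule names is not reported here.

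The 24 libraries entered a single model with 1 mean per group in edgeR 4.0.16 under R 4.3.3 (TMM factors 0.865 to 1.086, 16 residual degrees of freedom, common biological coefficient of variation 0.0682), with p-values adjusted by Benjamini-Hochberg over all genes of a fit. Correlations used log2 CPM with a prior count of 2. The scripts were tested on simulated data. No 2 libraries held identical counts, and the chi-square per gene between replicates was at least 2.67. It was 43.4 and 60.1 for the pairs with Y396E arsenite replicate 3, against 4.73 for the other pair of that group. Same-numbered replicates of RQ and WT deviated together in every pair, with r from 0.291 to 0.525 in control and from 0.147 to 0.150 in arsenite, and their numbers were taken to pair those libraries. In the 10 other comparisons checked at least 1 pair was at 0.1 or below. Alternatives were DESeq2 1.42.0, RLE and totals scaling, other filters and gene types, fits to only the groups compared, the replicate block, the parental libraries included, a fold of 2 and leaving out each library. The immunoprecipitated libraries were not analysed here.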

Additional observations from a re-analysis of the deposited data

Results flagged for a closer look

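The results below were singled out because the change of a gene with arsenite differed between a mutant and WT by a test of that difference (edgeR, adjusted over 9099 genes). EGR1 differed by 0.43 in S181E, 0.40 in Y396E and 0.61 in RQ on the log2 scale (adjusted p = 0.0172, 0.0201 and 0.0259). IER3 differed by 0.50 in S181E and 0.66 in Y396E (adjusted p = 0.00109 and 4.63e-05), and NR4A2 by -0.40 in Y396E (adjusted p = 0.0318). EGR1 had the lower control level in all 9 libraries of the mutants, and IER3 in all 6 of S181E and Y396E.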

How the results depend on the processing

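Of 67 calls for the members in the main and the lower-filter fit, 60 were kept under every setting tried at the fold threshold of 1.2, 7 were lost under at least 1 and 0 reversed. The 32 calls of arsenite against control were the same in number under every setting but the fold of 2, where 26 remained, and so were the 12 calls of EGR4 and NR4A3 under theirs and the 10 members past 1.2-fold in the parental pair. For the 8 genes of the main filter, a fold of 2 left 0 of 9 differences from WT in control, 0 of 8 in arsenite and 0 of 6 in response. None of these was that large. The fold of 2 was not applied to the lower-filter fit, in which NR4A3 in Y396E in arsenite was 2.29-fold lower than in WT. Scaling by totals left 3 of the 6 response differences and ended the 3 of EGR1. Leaving out 1 library gave 8 to 13 calls in control, 7 to 10 in arsenite, 2 to 7 in response, and 0 or 1 between Y396E and S181E. With 3 libraries per group, these calls near the thresholds depend on single libraries.

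The replicate number as a block gave 32, 9, 8, 6 and 0 calls in the 5 families of comparisons and 12 for EGR4 and NR4A3, and changed no call of a member. Fitting only the groups compared, EGR1 and NR4A2 were not called in the response of Y396E, at 0.40 (adjusted p = 0.0615) and -0.39 (adjusted p = 0.107). Without WT control replicate 2, IER2 was called lower in control in S181E (-0.28) and Y396E (-0.27) and NR4A1 in S181E (-0.32), and without S181E control replicate 3 NR4A1 was at -0.34. IER2 in Y396E was called without Y396E control replicate 1 (-0.30), EGR1 in arsenite without WT arsenite replicate 2 (-0.32 in S181E, -0.28 in Y396E) or S181E arsenite replicate 3 (-0.32), and IER5 in RQ in arsenite without RQ arsenite replicate 2 (0.31). EGR2 in S181E in control was called by DESeq2 (-0.50, adjusted p = 0.0146), with only the groups compared (-0.51) and without 4 single libraries of other populations (-0.50). The cause was not tested for any of these. Control counts of EGR2 and EGR4 were low, which limits the precision of their differences.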
